A study of Homo sapiens with 12 samples.

Results

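The genes of cholesterol and fatty acid synthesis, with the genes that control and balance them, were examined in the established ovarian cancer line OVCAR8, of human origin. The set is a list of genes by function, with no threshold on measured values, and holds 34 of the 26485 genes counted. By role it comprises 7 genes of the mevalonate arm, 11 genes from squalene to cholesterol, 5 genes of SREBP regulation, 4 genes of sterol transport, uptake and efflux, and 7 genes of fatty acid synthesis. Each of the 34 genes was present in the files, and 32 had enough counts to be tested. SC5D, a sterol desaturase, had between 0 and 11 counts per library and ABCG1, a sterol exporter, between 0 and 4, so neither was tested. OVCAR8 cells were grown in RPMI with serum and treated for 7 h with vehicle (control), with 150 nM EC359, with 100 nM trametinib, or with both agents at the same doses. EC359 is a small-molecule inhibitor of the leukemia inhibitory factor receptor (LIFR), and trametinib inhibits MEK, the kinase that activates ERK. Each of the 4 groups had 3 libraries of polyadenylated RNA, 12 in all, from a single cell line.

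Cells make cholesterol from acetyl-CoA by way of mevalonate, isoprenoids, squalene and lanosterol, and make saturated and unsaturated fatty acids from the same precursor. The transcription factors SREBP-1 and SREBP-2 switch on the genes of both pathways. They are held in the endoplasmic reticulum by SCAP and the INSIG proteins while sterols are plentiful, and are cut and sent to the nucleus when sterols run low. Liver X receptors respond to an excess of oxysterols and raise sterol efflux through ABCA1 and ABCG1.

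Between 24790392 and 32467283 reads were counted per library. Expression is given in CPM, counts divided by library size and set to a common scale, here after normalization by the trimmed mean of M values (TMM). Log2 CPM correlated across genes, which are not independent replicates, with Pearson's r of 0.993 to 0.994 between libraries of a group and 0.962 to 0.989 between groups. Epithelial markers of the line were present, with KRT7 between 877 and 1032 CPM and PAX8 between 73.7 and 122 CPM, while MUC16 was at 0 in 10 of 12 libraries. Of the 5 mesenchymal markers, VIM, FN1, COL1A1 and CDH2 lay at 168 CPM or more in every library and COL3A1 at 0.188 CPM or less. The leukocyte markers PTPRC and CD3E were at 0 in 12 of 12 libraries. SPRY4 and DUSP6, which ERK signaling induces, had log2 fold changes of -6.28 and -5.44 with trametinib, 2.05 and 1.86 with EC359, and -3.70 and -1.41 with the combination. ETV5 and CCND1, checked alongside, had -4.15 and -2.14 with trametinib, 0.41 and -0.33 with EC359, and -3.53 and -2.58 with the combination. The labels number the replicates but do not say whether they were separate cultures, so p-values measure the spread between these libraries, which may be technical. In bulk RNA, fewer cells of a kind and less RNA per cell cannot be told apart.

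The promoters of 6 members are shown. They are the genes with the strongest response to EC359, the gene of the main activator of cholesterol genes, and a gene with little response. INSIG1, HMGCS1, SCD and MSMO1 are the members that rose at least 2-fold with EC359, SREBF2 encodes SREBP-2, and FDPS had a log2 fold change near 0 under each treatment. Each line gives the 250 bases before the transcription start in RefSeq (GRCh38.p14), 5′ to 3′ on the strand of the gene. The RefSeq start can differ from the start in the annotation on which the reads were counted. The windows are chr22:41832855-41833104 (plus strand), chr7:155297628-155297877 (plus), chr5:43313413-43313662 (minus, the first of 2 windows for this gene), chr4:165327419-165327668 (plus), chr10:100346983-100347232 (plus) and chr1:155308616-155308865 (plus). Capitals mark TCACNCCAC, a sterol regulatory element core, CCAAT, the box bound by NF-Y, GGGCGG, the Sp1 box, and CACGTG, the E-box, on either strand.
SREBF2: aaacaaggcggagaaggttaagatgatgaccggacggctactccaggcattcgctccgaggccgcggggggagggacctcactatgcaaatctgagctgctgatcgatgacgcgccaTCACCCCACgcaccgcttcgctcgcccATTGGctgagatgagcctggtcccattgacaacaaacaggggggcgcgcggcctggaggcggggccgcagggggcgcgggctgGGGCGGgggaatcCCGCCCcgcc
INSIG1: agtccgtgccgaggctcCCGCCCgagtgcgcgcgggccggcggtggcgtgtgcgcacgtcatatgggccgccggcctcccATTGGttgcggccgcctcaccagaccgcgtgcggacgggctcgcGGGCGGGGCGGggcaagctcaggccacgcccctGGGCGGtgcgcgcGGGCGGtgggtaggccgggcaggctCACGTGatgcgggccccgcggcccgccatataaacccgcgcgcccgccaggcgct
HMGCS1: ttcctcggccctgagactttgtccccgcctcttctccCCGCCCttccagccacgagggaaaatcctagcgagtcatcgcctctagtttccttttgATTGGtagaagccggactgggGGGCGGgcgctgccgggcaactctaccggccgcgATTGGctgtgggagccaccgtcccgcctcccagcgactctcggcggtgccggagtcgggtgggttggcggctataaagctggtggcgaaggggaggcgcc
MSMO1: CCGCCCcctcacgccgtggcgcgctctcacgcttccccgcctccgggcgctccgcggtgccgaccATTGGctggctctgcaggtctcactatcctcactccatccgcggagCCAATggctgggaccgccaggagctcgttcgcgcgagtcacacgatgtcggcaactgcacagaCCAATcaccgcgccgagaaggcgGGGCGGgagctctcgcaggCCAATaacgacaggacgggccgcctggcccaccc
SCD: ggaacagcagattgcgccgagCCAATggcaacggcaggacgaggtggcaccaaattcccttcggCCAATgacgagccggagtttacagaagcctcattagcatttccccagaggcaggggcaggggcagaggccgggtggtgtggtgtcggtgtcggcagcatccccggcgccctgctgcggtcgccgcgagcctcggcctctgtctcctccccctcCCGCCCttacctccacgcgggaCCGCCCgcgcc
FDPS: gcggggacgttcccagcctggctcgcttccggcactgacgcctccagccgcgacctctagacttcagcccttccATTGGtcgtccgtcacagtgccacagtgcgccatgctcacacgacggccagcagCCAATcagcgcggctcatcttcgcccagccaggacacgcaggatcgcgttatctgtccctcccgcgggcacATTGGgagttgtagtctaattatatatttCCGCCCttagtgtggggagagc

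Promoter windows, here from 250 bases before to 50 bases after the start, were matched by symbol for 29 of the 34 members. There was none for ACAT2, FDFT1, SQLE, ABCG1 and FASN. The sterol regulatory element core occurred in SREBF2 alone among the 29 (3.45%), where it lies between 133 and 125 bases before the start, against 1.44% of 10689 matched genes among those tested and 1.39% of all 27305 genes in the promoter table. CCAAT occurred in 21 of 29 members (72.41%), against 42.95% of tested genes and 39.72% of all genes. The Sp1 box was present in 28 of 29 members (96.55%), against 76.65% of tested genes and 48.3% of all genes. The E-box was present in 5 of 29 members (17.24%), against 12.47% and 8.77%. The printed FDPS window carried 3 CCAAT boxes, against 2 each in HMGCS1 and SCD, 4 in MSMO1 and 1 each in INSIG1 and SREBF2. A pair of Sp1 boxes in the INSIG1 window overlapped by 1 base. These are matches of letters, and binding was not measured. Only these exact strings were searched, with any base at N, so elements with other letters were not counted.

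**Figure D1:**
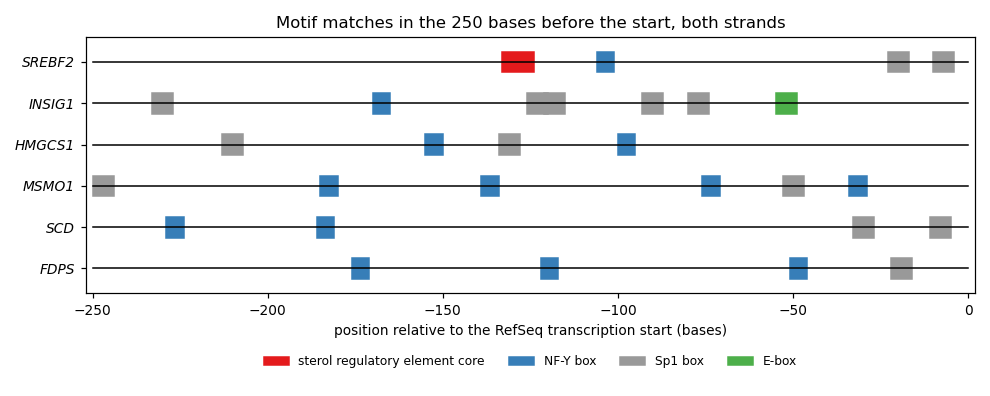
Positions of the matched motifs in the printed promoter windows of SREBF2, INSIG1, HMGCS1, MSMO1, SCD and FDPS. The horizontal axis is the distance in bases from the RefSeq transcription start, and each colored block is a match on either strand. The sterol regulatory element core (red) appears in SREBF2 only, and each of the 6 windows holds at least 1 CCAAT box (blue) and 1 Sp1 box (gray).

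To ask how each treatment moved these genes, the 12 libraries were fitted together and compared with control by the quasi-likelihood test of edgeR. P-values were adjusted by Benjamini-Hochberg over the 14865 genes tested. A member was called at an adjusted p-value under 0.05. With EC359, 21 of the 32 tested members were higher (65.6%) and 4 were lower, whereas 30.8% of all tested genes were higher and 30.3% lower. The median log2 fold change of the members was 0.42, against -0.01 over all tested genes. An increase of at least 2-fold was seen in 4 members, INSIG1, HMGCS1, SCD and MSMO1, against 4.19% of all tested genes. In 21 members every EC359 library lay above every control library, and in 4 every one lay below. The share of all tested genes with such separation is not given here.

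With trametinib, 11 members were higher (34.4%) and 2 were lower, against 13.0% and 15.2% of all tested genes. The members' median log2 fold change was 0.06, and that of all tested genes was 0.0044. Only ABCA1 rose by at least 2-fold, against 0.478% of all tested genes. With the combination, 22 members were higher (68.8%) and 2 were lower, against 35.0% and 34.7% of all tested genes, with a median log2 fold change of 0.26. The members that rose at least 2-fold with the combination were INSIG1, HMGCS1, MYLIP and ABCA1, 4 of 32, against 7.27% of all tested genes. When libraries were scaled by total counts in place of TMM, the median of all genes shifted to -0.15 with EC359, -0.14 with the combination and -0.16 between the combination and trametinib, and the combination split became 18 higher and 6 lower, with a members' median of 0.121. The shares of all tested genes above are from TMM scaling, and those with total counts are not given here. The 3 comparisons share the control libraries and are given side by side.

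**Figure D2:**
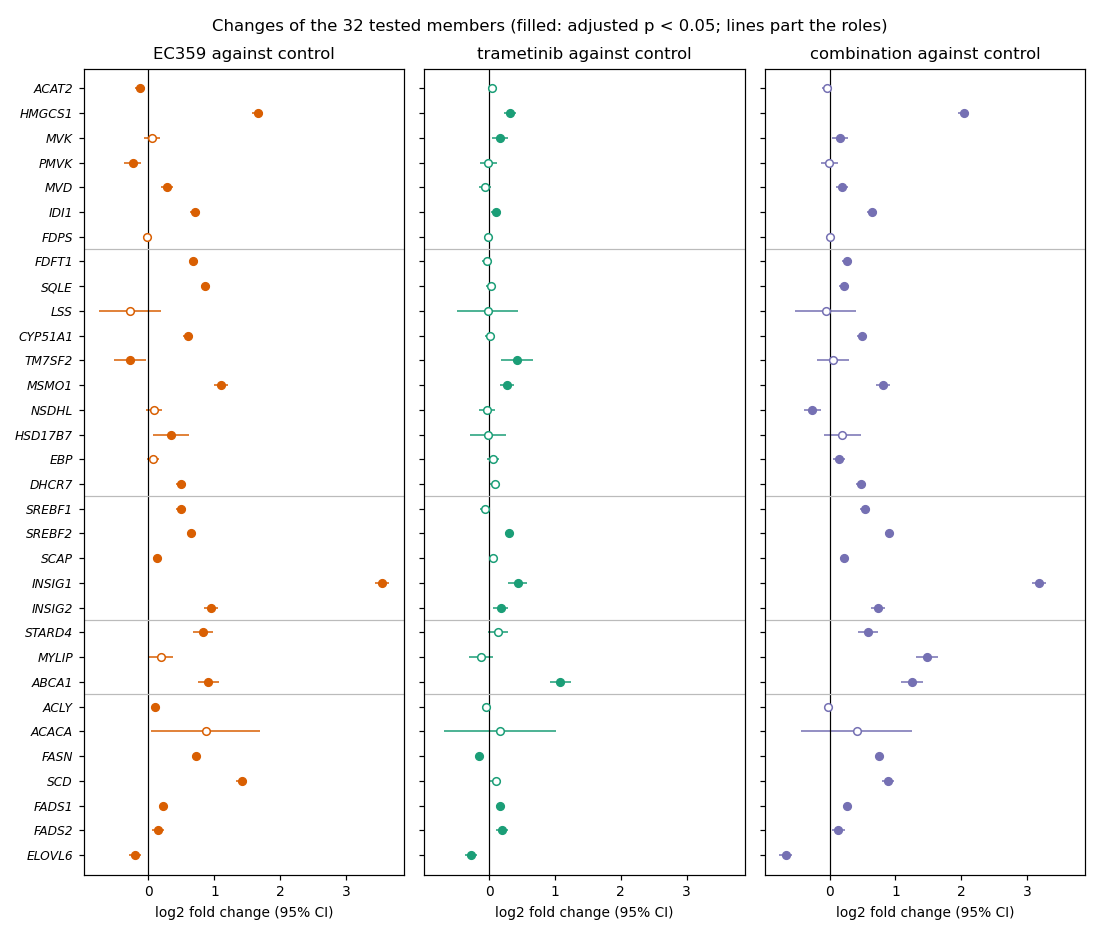
Log2 fold changes of the 32 tested members against control for EC359, trametinib and the combination, with 95% confidence intervals from the edgeR fit. Filled points had an adjusted p-value under 0.05, and gray lines separate the roles. INSIG1 lies farthest to the right with EC359 (3.55) and with the combination (3.18), and most trametinib points lie near 0.

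Among the 5 genes of SREBP regulation, each was higher with EC359 and with the combination, and 3 were higher with trametinib. Of all tested genes, 30.8%, 35.0% and 13.0% were higher in these comparisons. INSIG1 (chr7:155297776-155310235 in hg38) encodes a sterol-sensing retention protein of the SREBP complex and is itself an SREBP target. INSIG1 was measured at 7.18, 7.42 and 6.83 CPM in the controls, 83.4, 85.1 and 81.9 with EC359, 10.1, 9.04 and 9.67 with trametinib, and 62.8, 64.9 and 65.99 in the combination. All EC359 and combination libraries were far above all control and trametinib libraries, with no overlap between any of the 4 groups. INSIG1 rose 11.7-fold with EC359 (log2 fold change 3.55, standard error 0.054, adjusted p = 4.49e-50 in edgeR), 9.04-fold with the combination (log2 fold change 3.18, standard error 0.056, adjusted p = 2.59e-47) and 1.35-fold with trametinib (log2 fold change 0.43, standard error 0.072, adjusted p = 2.45e-06). It had the largest change of the members in the EC359 and combination comparisons.

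INSIG2, the second retention protein, was measured at 22.9, 23.9 and 23.9 CPM in the controls, 41.3, 47.03 and 47.6 with EC359, 26.1, 28.6 and 25.6 with trametinib, and 39.1, 38.8 and 39.6 in the combination. Its EC359 and combination libraries were above the other 6, and the trametinib libraries were above control by a smaller margin. INSIG2 rose 1.92-fold with EC359, 1.66-fold with the combination and 1.13-fold with trametinib (edgeR adjusted p = 7.23e-23, 3.7e-18 and 0.0102). The trametinib call was lost without control replicate 1 or trametinib replicate 2, with adjusted p-values of 0.0528 and 0.11 in edgeR.

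SREBF2 (chr22:41833079-41907308), whose promoter above carries the sterol regulatory element core, encodes SREBP-2, the main activator of the cholesterol genes. SREBF2 was measured at 118, 120.4 and 120.0 CPM in the controls, 188, 190.2 and 184 with EC359, 146, 150.3 and 145 with trametinib, and 226, 219 and 223 in the combination. The groups did not overlap, and their order was control, trametinib, EC359 and combination from low to high. SREBF2 rose 1.57-fold with EC359, 1.23-fold with trametinib and 1.86-fold in the combination (log2 fold changes 0.65, 0.30 and 0.90, standard error 0.028, 0.028 and 0.027, edgeR adjusted p = 2.97e-28, 2.41e-13 and 2.19e-35).

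SREBF1, which encodes the SREBP-1 proteins that favor fatty acid genes, was measured at 47.7, 47.8 and 47.1 CPM in the controls, 65.5, 65.1 and 69.9 with EC359, 45.8, 44.2 and 46.8 with trametinib, and 68.5, 69.1 and 69.9 in the combination. Its EC359 and combination libraries overlapped each other and lay above the other groups, and the trametinib libraries lay just below control. It rose 1.41-fold with EC359 and 1.46-fold with the combination (edgeR adjusted p = 1.37e-16 and 1.54e-18), while the log2 fold change with trametinib was -0.060 (95% confidence interval -0.14 to 0.021).

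SCAP, the escort protein of the SREBPs, was measured at 93.9, 92.7 and 99.8 CPM in the controls, 105, 103 and 106 with EC359, 99.2, 99.5 and 100.3 with trametinib, and 112, 109.9 and 111 in the combination. The EC359 and combination libraries were slightly above control. Its log2 fold change was 0.22 with the combination (edgeR adjusted p = 1.6e-08) and 0.13 with EC359 (adjusted p = 0.00035), and the EC359 value turned to -0.0046 with scaling by total counts. With trametinib it was 0.062 (adjusted p = 0.143), and 0.0956 (adjusted p = 0.0332) without control replicate 3.

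In the mevalonate arm, 3 of 7 genes were higher (42.9%) and 2 were lower (28.6%) with EC359, against 30.8% and 30.3% of all tested genes. With trametinib 3 were higher (42.9%, against 13.0%), and with the combination 4 were higher (57.1%, against 35.0%). HMGCS1 (chr5:43287470-43313512), the cytosolic enzyme that condenses acetyl-CoA and acetoacetyl-CoA to HMG-CoA, was measured at 29.1, 29.4 and 28.4 CPM in the controls, 87.7, 95.3 and 90.3 with EC359, 36.7, 35.8 and 35.7 with trametinib, and 119, 119 and 118 in the combination. No groups overlapped, and here the combination libraries were the highest. HMGCS1 rose 3.15-fold with EC359 (log2 fold change 1.65, standard error 0.039, adjusted p = 1.9e-40 in edgeR), 4.09-fold with the combination (log2 fold change 2.03, standard error 0.038, adjusted p = 1.54e-45) and 1.25-fold with trametinib (log2 fold change 0.32, standard error 0.044, adjusted p = 3.51e-08).

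IDI1, which interconverts the pair of isoprenoid building blocks, was measured at 66.5, 60.6 and 59.8 CPM in the controls, 97.3, 105 and 101 with EC359, 68.97, 64 and 66.96 with trametinib, and 99.3, 99.1 and 93.9 in the combination. Its EC359 and combination libraries overlapped each other, and its trametinib and control libraries also overlapped. IDI1 rose 1.63-fold with EC359 and 1.57-fold with the combination (edgeR adjusted p = 3.36e-22 and 6.95e-21). With trametinib its log2 fold change was 0.10 (adjusted p = 0.0446), and the call was lost without control replicate 2 or 3 or trametinib replicate 1 or 3 (edgeR adjusted p 0.108 to 0.248).

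The remaining mevalonate genes had smaller changes. MVD, which decarboxylates mevalonate diphosphate, lay at 63.6 to 84.7 CPM over the 12 libraries and rose with EC359 (log2 fold change 0.28, edgeR adjusted p = 1.39e-06) and with the combination (0.19, adjusted p = 0.000411). The mevalonate kinase MVK (20.7 to 25.8 CPM) rose with trametinib by 0.17 on the log2 scale and with the combination by 0.16 (edgeR adjusted p = 0.0277 and 0.016). Each of these MVK calls was lost on leaving out any of 3 libraries: control replicate 1 or 3 or trametinib replicate 3 for trametinib (adjusted p 0.0878 to 0.187), and control replicate 3 or combination replicate 2 or 3 for the combination (0.0547 to 0.125). PMVK, which adds the next phosphate, and ACAT2, the cytosolic thiolase of the first step, were lower with EC359. Their log2 fold changes were -0.24 and -0.12 (edgeR adjusted p = 0.00106 and 0.00337), within ranges of 15.8 to 21.2 CPM and 58.6 to 70.4 CPM over all libraries. FDPS, the synthase of farnesyl diphosphate, lay at 100.5 to 108 CPM over the 12 libraries. Its 95% confidence intervals were -0.086 to 0.038 with EC359, -0.071 to 0.051 with trametinib and -0.054 to 0.070 in the combination on the log2 scale.

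Of the 11 genes from squalene to cholesterol, 10 were tested. With EC359, 6 were higher (60%) and 1 was lower (10%), against 30.8% and 30.3% of all tested genes. With trametinib 2 were higher (20%, against 13.0%). With the combination 6 were higher (60%) and 1 was lower (10%), against 35.0% and 34.7%. SQLE, the squalene epoxidase and a rate-limiting step after mevalonate, was measured at 61.98, 64.9 and 63.2 CPM in the controls, 115, 117 and 114 with EC359, 64.04, 66.6 and 62.9 with trametinib, and 74.7, 72.5 and 73.8 in the combination. The EC359 libraries stood far above the other 9, the combination libraries lay a little above control, and the trametinib and control libraries overlapped. SQLE rose 1.82-fold with EC359 (log2 fold change 0.86, standard error 0.034, adjusted p = 3.58e-30 in edgeR) and 1.16-fold with the combination (log2 fold change 0.22, standard error 0.035, adjusted p = 2.37e-07), and its log2 fold change with trametinib was 0.024 (95% confidence interval -0.046 to 0.095).

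FDFT1, the squalene synthase that commits farnesyl diphosphate to sterols, was measured at 50.4, 52.4 and 53.6 CPM in the controls, 83.6, 83.5 and 83.9 with EC359, 50.4, 51.01 and 51.9 with trametinib, and 63.4, 62.5 and 61.8 in the combination. As for SQLE, the order was EC359, then the combination, then control and trametinib, which overlapped. FDFT1 rose 1.603-fold with EC359 and 1.199-fold with the combination (edgeR adjusted p = 1.02e-23 and 1.51e-08), and its log2 fold change with trametinib was -0.031 (adjusted p = 0.612).

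MSMO1 (chr4:165327666-165343162), which removes methyl groups from the sterol ring, was measured at 20.6, 20.7 and 20.9 CPM in the controls, 45.2, 43.5 and 44.5 with EC359, 25.2, 25.7 and 24.01 with trametinib, and 37.9, 34.7 and 36.1 in the combination. The 4 groups did not overlap, with EC359 highest and control lowest. MSMO1 rose 2.14-fold with EC359 (log2 fold change 1.10, standard error 0.051, adjusted p = 1.84e-26 in edgeR), 1.75-fold with the combination (log2 fold change 0.81, standard error 0.052, adjusted p = 1.98e-20) and 1.204-fold with trametinib (log2 fold change 0.27, standard error 0.053, adjusted p = 6.29e-05).

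CYP51A1, the lanosterol demethylase, was measured at 53.8, 54.9 and 58.7 CPM in the controls, 82.3, 85.8 and 85.9 with EC359, 58.1, 54.6 and 56.8 with trametinib, and 78.2, 77.4 and 80.5 in the combination. Its EC359 and combination libraries were above the other 6, which overlapped between control and trametinib. CYP51A1 rose 1.52-fold with EC359 and 1.41-fold with the combination (edgeR adjusted p = 8.04e-21 and 1.77e-17), and its log2 fold change with trametinib was 0.017. DHCR7, the reductase of the last step, lay at 56.3 to 85.9 CPM and rose 1.41-fold with EC359 and 1.39-fold with the combination (edgeR adjusted p = 2.43e-17 and 3.91e-17). With trametinib its log2 fold change was 0.089 (edgeR adjusted p = 0.0727), and 0.12 (adjusted p = 0.0346) without control replicate 3.

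The other sterol enzymes had smaller or less certain changes. TM7SF2, a sterol reductase (3.803 to 7.03 CPM), was lower with EC359 and higher with trametinib (log2 fold changes -0.28 and 0.42, edgeR adjusted p = 0.0467 and 0.0044). The EC359 call of TM7SF2 was lost without control replicate 1, 2 or 3 or EC359 replicate 1 or 2 (adjusted p 0.069 to 0.151). HSD17B7, a ketosteroid reductase (3.43 to 5.17 CPM), was higher with EC359 by 0.34 on the log2 scale (edgeR adjusted p = 0.0283), a call lost without control replicate 1 or 2 or EC359 replicate 2 (0.0638 to 0.141). NSDHL, the sterol dehydrogenase that acts after MSMO1, was lower with the combination (19.4 to 26.1 CPM, log2 fold change -0.26, edgeR adjusted p = 0.000211). EBP, the sterol isomerase (47.4 to 56.9 CPM), was higher with the combination by 0.14 (adjusted p = 0.00421), a call lost without combination replicate 3 (adjusted p = 0.0574). LSS, the lanosterol synthase, was not called in any comparison and lay at 8.62 to 14.7 CPM. Its interval with EC359 was -0.75 to 0.19 on the log2 scale. In the annotation of the files 18 exons of LSS and 63 exons of ACACA are also listed on a second contig. Reads that fit both places could be lost, so the values of these genes are uncertain.

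**Figure D3:**
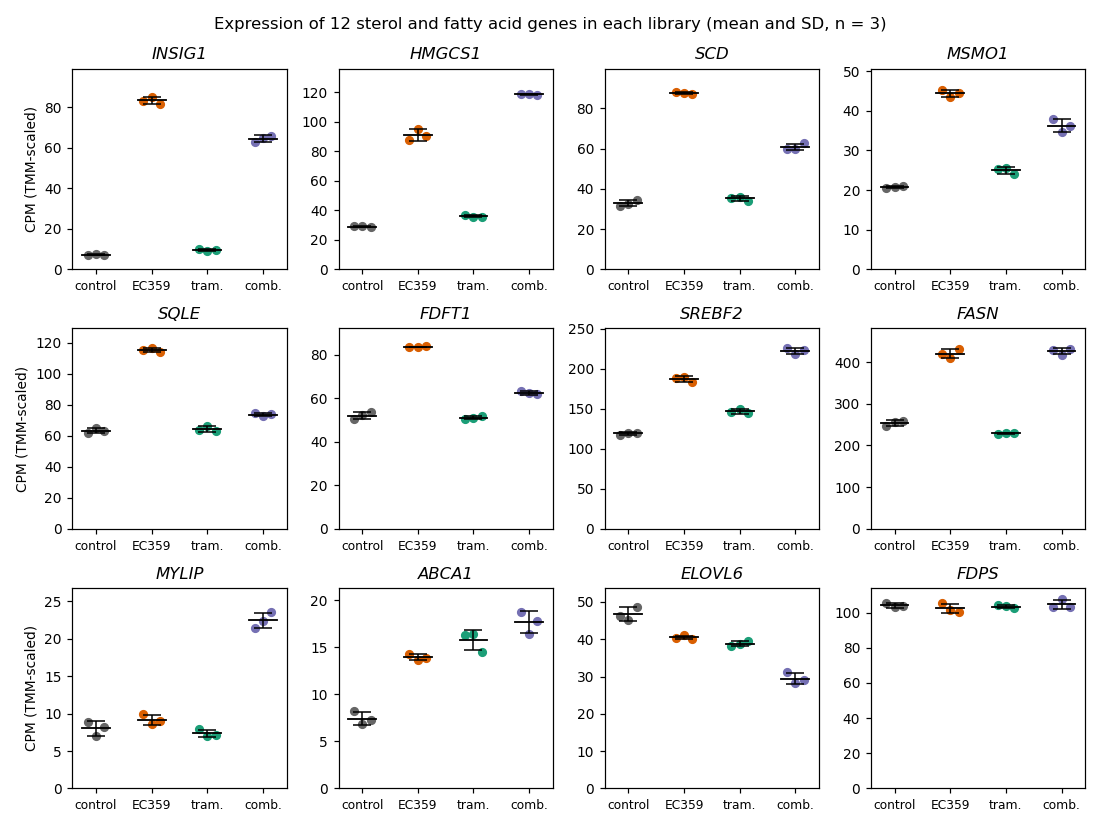
Expression of 12 members in each library, in CPM after TMM scaling, with points for libraries, horizontal lines for the group mean and bars for the SD (n = 3 per group; tram., trametinib; comb., combination). INSIG1, SCD, MSMO1, SQLE and FDFT1 are highest with EC359, HMGCS1, SREBF2, MYLIP and ABCA1 have their highest mean with the combination, ELOVL6 is lowest with the combination, and FDPS lies between 100.5 and 108 CPM in all 12 libraries.

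Among the genes of sterol transport, uptake and efflux, 3 of 4 were tested. Of these, 2 rose with EC359 (66.7%), 1 with trametinib (33.3%) and 3 in the combination (100%), against 30.8%, 13.0% and 35.0% of all tested genes. STARD4, a carrier that moves sterol between membranes, was measured at 10.3, 9.89 and 10.8 CPM in the controls, 17.8, 18.1 and 19.3 with EC359, 12.01, 11.2 and 10.8 with trametinib, and 15.4, 14.5 and 16.7 in the combination. The EC359 libraries were the highest, followed by the combination. STARD4 rose 1.78-fold with EC359 and 1.501-fold with the combination (edgeR adjusted p = 1.7e-14 and 1.1e-09), and its log2 fold change with trametinib was 0.14 (adjusted p = 0.206).

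MYLIP (chr6:16129086-16148247), a ubiquitin ligase that degrades lipoprotein receptors and is a target of liver X receptors, was measured at 8.93, 6.94 and 8.27 CPM in the controls, 9.93, 8.56 and 9.02 with EC359, 7.93, 7.03 and 7.14 with trametinib, and 21.5, 22.4 and 23.5 in the combination. Each combination library lay above all of the other 9 libraries. Control overlapped with EC359 and with trametinib, and the EC359 libraries lay above the trametinib libraries. MYLIP rose 2.79-fold with the combination (log2 fold change 1.48, standard error 0.085, adjusted p = 1.02e-22 in edgeR). With EC359 its log2 fold change was 0.19 (edgeR adjusted p = 0.0675) and with trametinib -0.12 (adjusted p = 0.348). The EC359 value passed the threshold without control replicate 1 or EC359 replicate 2 (adjusted p = 0.0177 and 0.0382).

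ABCA1 (chr9:104781003-104928246), the exporter of cholesterol to apolipoproteins and also a target of liver X receptors, was measured at 8.21, 6.82 and 7.27 CPM in the controls, 14.3, 13.7 and 13.8 with EC359, 16.3, 16.4 and 14.5 with trametinib, and 18.8, 16.4 and 17.8 in the combination. All treated libraries were above all control libraries. ABCA1 rose 1.88-fold with EC359 (log2 fold change 0.91, standard error 0.082, adjusted p = 1.59e-14 in edgeR), 2.12-fold with trametinib (log2 fold change 1.08, standard error 0.081, adjusted p = 6.21e-17) and 2.38-fold with the combination (log2 fold change 1.25, standard error 0.081, adjusted p = 1.82e-20).

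In fatty acid synthesis, 5 of 7 genes were higher (71.4%) and 1 was lower (14.3%) with EC359, against 30.8% and 30.3% of all tested genes. With trametinib 2 were higher and 2 were lower (28.6% each, against 13.0% and 15.2%). With the combination 4 were higher (57.1%) and 1 was lower (14.3%), against 35.0% and 34.7%. SCD (chr10:100347015-100364831), the desaturase that makes oleate and palmitoleate, was measured at 31.7, 32.4 and 34.4 CPM in the controls, 88.1, 87.8 and 86.9 with EC359, 35.5, 36.1 and 34 with trametinib, and 59.9, 59.8 and 62.5 in the combination. The EC359 libraries were the highest, the combination libraries followed, and trametinib overlapped control. SCD rose 2.67-fold with EC359 (log2 fold change 1.41, standard error 0.041, adjusted p = 1.53e-36 in edgeR) and 1.85-fold with the combination (log2 fold change 0.89, standard error 0.042, adjusted p = 2.44e-26). With trametinib its log2 fold change was 0.099 (edgeR adjusted p = 0.0904), and 0.13 (adjusted p = 0.0375) without control replicate 3.

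FASN, the fatty acid synthase, was measured at 247, 255 and 259.5 CPM in the controls, 418, 410.1 and 432 with EC359, 228, 231 and 229.9 with trametinib, and 429.6, 418 and 431 in the combination. Its EC359 and combination libraries overlapped each other and lay above all control libraries, and the trametinib libraries lay below control. FASN rose 1.65-fold with EC359 and 1.68-fold with the combination (log2 fold changes 0.73 and 0.75, edgeR adjusted p = 7.75e-33 and 1.25e-33) and was lower with trametinib (log2 fold change -0.15, adjusted p = 4.56e-06).

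ELOVL6, which elongates palmitate to stearate, was measured at 46.2, 45.2 and 48.7 CPM in the controls, 40.4, 41.05 and 40.1 with EC359, 38.2, 38.7 and 39.5 with trametinib, and 31.1, 28.2 and 29.1 in the combination. It was lower than control with each treatment, without overlap, and lowest with the combination. Its log2 fold changes were -0.21 with EC359, -0.27 with trametinib and -0.67 in the combination (edgeR adjusted p = 8.21e-05, 2.7e-06 and 8.79e-19). It was the only member called lower in all 3 comparisons with control.

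FADS1 and FADS2, the desaturases of polyunsaturated fatty acids, overlap at their starts on opposite strands of chromosome 11, which the strand-specific counting told apart, and differed from control by at most 1.195-fold. FADS1 (119 to 152 CPM) was higher by 0.22 with EC359, 0.16 with trametinib and 0.26 in the combination on the log2 scale (edgeR adjusted p = 4.09e-09, 1.14e-05 and 3.91e-11). FADS2 (35.2 to 42.4 CPM) was higher by 0.14, 0.20 and 0.13 (edgeR adjusted p = 0.00771, 0.000598 and 0.0101), where the combination value turned to -0.0042 with scaling by total counts and lost its call without control replicate 2 or combination replicate 1 (adjusted p 0.0528 and 0.127). ACLY, which makes cytosolic acetyl-CoA from citrate (341 to 391 CPM), was higher with EC359 by 0.098 (edgeR adjusted p = 0.000366), and this turned to -0.036 with scaling by total counts. ACACA, the acetyl-CoA carboxylase, was not called (2.74 to 9.85 CPM), with an EC359 log2 fold change of 0.87 (95% confidence interval 0.034 to 1.70) that passed without control replicate 1 (1.27, adjusted p = 0.00828).

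Levels were also summed over the members of each role. The mevalonate arm summed to 372 ± 7.66 CPM in the controls, 479 ± 5.17 with EC359, 384 ± 4.85 with trametinib and 507 ± 11.7 in the combination (SD, n = 3 per group). The genes from squalene to cholesterol summed to 342 ± 5.80, 504 ± 4.55, 354 ± 0.779 and 426 ± 4.17 CPM in the same order. These sums placed the combination above EC359 in the mevalonate arm and below it from squalene on, with no overlap between the 3 libraries of either group in either sum. The gap in the mevalonate arm rested on HMGCS1, at 91.1 ± 3.85 CPM with EC359 and 119 ± 0.206 in the combination, while the means of MVD (83.2 ± 2.03 and 77.6 ± 6.13) and IDI1 (101 ± 3.96 and 97.5 ± 3.08) went the other way. SREBP regulation summed to 293 ± 4.16, 487 ± 3.87, 329 ± 2.61 and 506 ± 4.49 CPM. Fatty acid synthesis summed to 855 ± 12.8, 1123 ± 16.8, 833 ± 5.43 and 1063 ± 20.1 CPM, and sterol transport, uptake and efflux to 25.9 ± 1.99, 41.6 ± 1.01, 34.5 ± 1.84 and 55.7 ± 2.39 CPM. Sums are dominated by the most abundant members and were not tested.

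**Figure D4:**
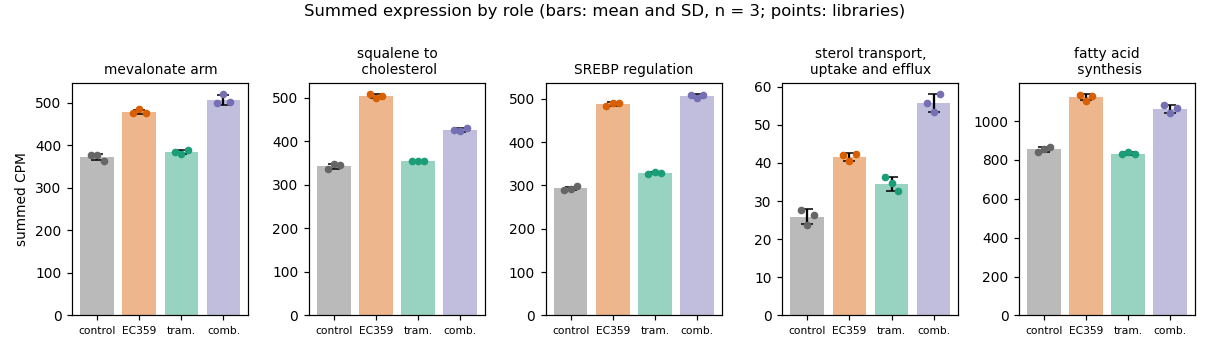
Summed CPM of the members of each role by group, with bars for the mean, error bars for the SD (n = 3) and points for libraries. From squalene to cholesterol the EC359 libraries (499 to 508 CPM) lie above the combination libraries (422 to 430.5 CPM), and in the mevalonate arm the combination libraries (499 to 521 CPM) lie above the EC359 libraries (475 to 485 CPM), a gap that rests on HMGCS1.

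To ask whether adding one agent to the other moved these genes further, the combination was compared with each single agent. Compared to EC359 alone, 7 members were higher (21.9%) and 11 were lower (34.4%) with the combination, against 24.1% and 25.2% of all tested genes, and the median log2 fold change was -0.0099. MYLIP rose 2.45-fold (log2 fold change 1.29, standard error 0.085, adjusted p = 1.76e-19 in edgeR). HMGCS1 (0.38), ABCA1 (0.34), TM7SF2 (0.34), SREBF2 (0.25), PMVK (0.24) and SCAP (0.089) were also higher on the log2 scale. The largest decreases were in SQLE (log2 fold change -0.65, standard error 0.034, adjusted p = 8.02e-24 in edgeR), SCD (log2 fold change -0.53, standard error 0.038, adjusted p = 1.03e-17) and ELOVL6 (log2 fold change -0.46, standard error 0.049, adjusted p = 7.51e-12). FDFT1 (-0.42), INSIG1 (-0.37), NSDHL (-0.34), MSMO1 (-0.29), STARD4 (-0.25), INSIG2 (-0.21), ACLY (-0.12) and CYP51A1 (-0.11) were lower as well. Of the genes from squalene to cholesterol, 5 of 10 were lower (50%) and 1 was higher (10%). In the mevalonate arm 2 of 7 were higher (28.6%, near the share of all tested genes) and none was called lower, with values of -0.098 for MVD and -0.058 for IDI1. The difference between the roles was not tested. Some of these calls depended on 1 library. The call of CYP51A1 was lost without EC359 replicate 2 or 3 or combination replicate 2 (edgeR adjusted p 0.0501 to 0.0543), that of SCAP without combination replicate 1 or EC359 replicate 2 (0.0657 and 0.103), and that of TM7SF2 without EC359 replicate 1 or 2 or combination replicate 1 or 2 (0.0524 to 0.0868). ACAT2 passed without EC359 replicate 2 (adjusted p = 0.045), EBP without combination replicate 1 (0.0245) and MVD without combination replicate 2 (0.00351).

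Compared to trametinib alone, 19 members were higher (59.4%) and 4 were lower (12.5%) with the combination, against 35.3% and 32.9% of all tested genes. With scaling by total counts, 14 members were higher and 10 lower, and the shares of all tested genes with that scaling are not given here. The median log2 fold change was 0.23, and 0.0645 with that scaling. INSIG1 (6.699-fold, log2 fold change 2.74, standard error 0.053, adjusted p = 5.65e-45 in edgeR), HMGCS1 (3.29-fold, log2 fold change 1.72, standard error 0.038, adjusted p = 2.56e-42) and MYLIP (3.04-fold, log2 fold change 1.61, standard error 0.086, adjusted p = 7.1e-24) rose by at least 2-fold. FASN was 1.86-fold and SCD 1.73-fold higher (edgeR adjusted p = 4.29e-37 and 5.55e-24). SREBF1, SREBF2, INSIG2, IDI1, MSMO1, CYP51A1, STARD4, DHCR7, FDFT1, MVD, SQLE, ABCA1, SCAP and FADS1 were also higher, by 0.093 to 0.60 on the log2 scale, but the values of SCAP and FADS1 turned to -0.0074 and -0.071 with scaling by total counts. ELOVL6 (-0.40), TM7SF2 (-0.37), NSDHL (-0.23) and ACAT2 (-0.090) were lower. The ABCA1 call (log2 fold change 0.17) was lost without combination replicate 1 or 3 or trametinib replicate 3 (edgeR adjusted p 0.0842 to 0.247), and that of ACAT2 without combination replicate 1 or 3 or trametinib replicate 2 or 3 (0.0621 to 0.137). EBP passed without combination replicate 1 (adjusted p = 0.00723) and ACLY without combination replicate 2 (0.041).

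The interaction term asked whether the log2 change with the combination differed from the sum of the changes with each agent. It was called in 16 of the 32 members, with 3 above the sum (9.38%) and 13 below it (40.6%), against 14.4% and 15.9% of all tested genes. The median was -0.11, against -0.0081 over all tested genes. MYLIP exceeded the sum (1.42, standard error 0.12, edgeR adjusted p = 9.4e-14). The other 2 above the sum, PMVK (0.25) and FASN (0.17), exceeded it by 1.19-fold and 1.12-fold. The calls of PMVK, IDI1, ELOVL6, FADS1 and FADS2 were each lost on leaving out 1 library (adjusted p 0.0504 to 0.128), and CYP51A1 passed without control replicate 3, EC359 replicate 1 or trametinib replicate 2 (0.0213 to 0.0456). INSIG1 (-0.80, standard error 0.083, edgeR adjusted p = 1.82e-11), ABCA1 (-0.74, 0.11, 3.66e-07), SQLE (-0.67, 0.049, 9.02e-17), SCD (-0.63, 0.059, 7.74e-13) and MSMO1 (-0.56, 0.072, 1.1e-08) fell short of the sum by the widest margins among the called members. SQLE and SCD had no called change with trametinib alone and were lower in the combination than with EC359 alone. ABCA1 rose with each agent, and in the combination reached 16.4 to 18.8 CPM, next to 14.5 to 16.4 CPM with trametinib. For HMGCS1 and SREBF2 the interaction was 0.062 (95% confidence interval -0.049 to 0.17) and -0.051 (-0.13 to 0.026), and neither was called.

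**Figure D5:**
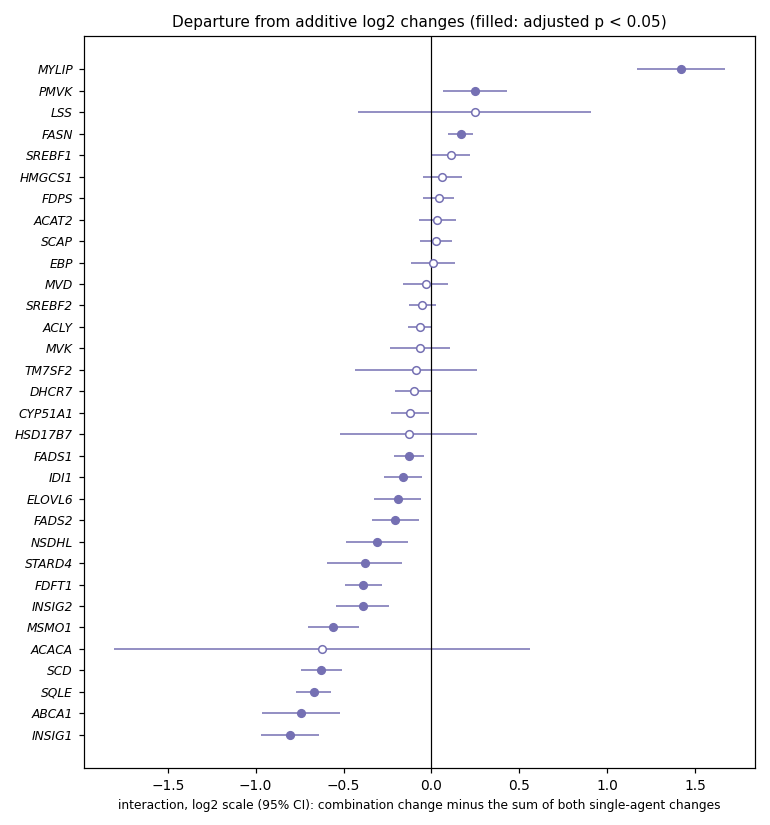
Interaction term of each tested member on the log2 scale, the change with the combination minus the sum of the changes with EC359 and trametinib, with 95% confidence intervals. Filled points had an adjusted p-value under 0.05 in edgeR. MYLIP lies at 1.42, far right of the others, while INSIG1, ABCA1, SQLE, SCD and MSMO1 lie between -0.80 and -0.56.

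Levels were compared between members only per length. In control, ACLY (81.9 CPM per kb of exon), FDPS (63.2), EBP (42.5), MVD (36.7) and ACAT2 (34.7) were the highest of the members on this scale. INSIG1 (2.32), STARD4 (1.85) and ABCA1 (0.708) were among the lowest. With EC359, INSIG1 reached 27.1 CPM per kb, above INSIG2 at 17.6, which had been above INSIG1 in control (9.13). SREBF2 was above SREBF1 in each group, at 20.6 against 9.504 CPM per kb in control and 38.4 against 13.8 with the combination.

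Genes next to these pathways were counted from 5 further lists, to be read against all tested genes, of which 30.8% were higher and 30.3% lower with EC359, 13.0% and 15.2% with trametinib, and 35.0% and 34.7% with the combination. Of 10 genes that use isoprenoids for prenylation, ubiquinone and dolichol, 2 were higher and 5 lower with EC359 (20% and 50%), 0 and 2 with trametinib (0% and 20%), and 1 and 4 with the combination (10% and 40%). Of 13 genes of SREBP processing and sterol handling, 6 were higher and 5 lower with EC359 (46.2% and 38.5%), 3 and 2 with trametinib (23.1% and 15.4%), and 5 and 7 with the combination (38.5% and 53.8%). NPC1, which releases cholesterol from lysosomes, was the only gene of this list past 2-fold, at 56.02 ± 1.35 CPM in the controls, 159.6 ± 5.64 with EC359, 53.7 ± 2.23 with trametinib and 122 ± 5.42 in the combination (SD, n = 3 per group). It rose with EC359 (log2 fold change 1.51, standard error 0.035, adjusted p = 5.04e-40 in edgeR) and with the combination (log2 fold change 1.12, standard error 0.036, adjusted p = 1.22e-33), and the combination was lower than EC359 alone (-0.39, adjusted p = 6.48e-15).

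Of 21 genes of fatty acid activation, elongation and glycerolipid entry, 8 were higher and 6 lower with EC359 (38.1% and 28.6%), 3 and 4 with trametinib (14.3% and 19%), and 11 and 4 with the combination (52.4% and 19%). LPIN1, the phosphatidate phosphatase of triglyceride synthesis, went from 11.3 ± 0.732 CPM in control to 25.4 ± 2.83 with EC359 and 21.8 ± 2.11 with the combination (SD, n = 3 each, edgeR adjusted p = 2.57e-18 and 3.63e-15). OXSM, the condensing enzyme of mitochondrial fatty acid synthesis, fell from 14.4 ± 0.889 to 6.15 ± 0.518 and 4.75 ± 0.697 CPM (adjusted p = 2.78e-17 and 1.05e-21). Of 14 genes of fatty acid oxidation and storage, 6 were higher and 5 lower with EC359 (42.9% and 35.7%), 1 and 2 with trametinib (7.14% and 14.3%), and 5 and 4 with the combination (35.7% and 28.6%). CPT2, which returns acyl groups to CoA inside mitochondria, fell from 13.7 ± 0.113 CPM in control to 4.82 ± 0.197 with EC359 and 2.43 ± 0.239 with the combination (SD, n = 3 each, edgeR adjusted p = 4.76e-21 and 2.81e-29). ANGPTL4, an inhibitor of lipoprotein lipase, was at 3.19 ± 0.564 CPM in control, rose to 10.6 ± 0.585 with EC359 and fell to 0.8296 ± 0.209 with trametinib (adjusted p = 5.24e-16 and 1.09e-13), and was at 2.78 ± 0.0544 with the combination (adjusted p = 0.24). Of 9 LXR and oxysterol genes, 7 were tested, with 2 higher and 1 lower with EC359 (28.6% and 14.3%), 1 and 1 with trametinib (14.3% each), and 3 and 2 with the combination (42.9% and 28.6%). These lists were not compared with other genes by a test. No gene of the isoprenoid list or of the LXR list met the rule for naming, which needs a 2-fold change against control and 1 CPM.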

How the data were processed

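RNA from OVCAR8 cells was sequenced in 12 stranded mRNA libraries with 100 bp paired reads. The deposited values are estimated counts (expected counts): the authors ran featureCounts 1.5.0-p1 on exons of an hg38 annotation, kept reads with a mapping quality of at least 2, counted by strand, and divided reads with several placements or overlapping genes into fractions, without normalization. The submitters' processing notes also name HISAT2 and bcl2fastq, with versions not given in the sources used here. Values were rounded to whole numbers.

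The files list 26485 genes, of which 6337 had no count in any library and 1205 are annotated on several contigs. filterByExpr of edgeR 4.0.16 in R 4.3.3 (minimum count 10, minimum total 15) kept 14865 genes, 32 of them members. TMM factors lay between 0.947 and 1.06, and the biological coefficient of variation was 3.95%. At 24790392 to 32467283 counts per library, a count of 0 allows up to 3 counts, or 0.0924 to 0.121 CPM, which covers counting error only. The 4 groups were fitted together with edgeR's robust quasi-likelihood test, and calls had a Benjamini-Hochberg adjusted p-value under 0.05, with the adjustment made over all tested genes. The interaction was the combination minus EC359 minus trametinib plus control. No pair of libraries held identical values. The tests were tested on simulated data.

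The members and the lists were chosen with earlier results of these data known, and some genes of the pathway are not reported here. All 34 members are named. Values in each library are given for members with a call and at least a 1.5-fold change against control or in the interaction, and for the 5 genes of SREBP regulation, and the rest by range. From the other lists, called genes with at least a 2-fold change against control and 1 CPM in the higher group are named, at most 4 per list. The lists covered isoprenoid use, SREBP processing and sterol handling, fatty acid activation, elongation and glycerolipid entry, fatty acid oxidation and storage, and LXR and oxysterol genes. Promoter windows and motif matches came from RefSeq (GRCh38.p14). The alternatives were DESeq2 1.42.0, its size factors in edgeR, total counts only, a fit restricted to the groups compared, the replicate block, no filter, a filter of 10 counts in each library, each library left out in turn, and a 2-fold minimum. Blots, cell assays and animal experiments were not analysed here.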

Additional observations from a re-analysis of the deposited data

Results flagged for a closer look

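For 16 members the response to one agent differed with the other agent present, as tested by the interaction term of the edgeR fit with Benjamini-Hochberg adjusted p-values. Of the tested members 9.38% were above the sum and 40.6% below it, against 14.4% and 15.9% of all tested genes. On the log2 scale the combination exceeded the sum of both changes in MYLIP (1.42), PMVK (0.25) and FASN (0.17). In the sterol genes it fell short of the sum by a difference of -0.67 for SQLE, -0.56 for MSMO1, -0.39 for FDFT1, -0.31 for NSDHL and -0.16 for IDI1. The retention proteins INSIG1 and INSIG2 had values of -0.80 and -0.39, and the transport genes ABCA1 and STARD4 had -0.74 and -0.38. In fatty acid synthesis the values were -0.63 for SCD, -0.21 for FADS2, -0.19 for ELOVL6 and -0.13 for FADS1.

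The call for PMVK was lost without control replicate 1 or 2, EC359 replicate 3, trametinib replicate 2 or 3, or combination replicate 2 (adjusted p 0.0559 to 0.128), and that for IDI1 without control replicate 2 or 3, EC359 replicate 2, trametinib replicate 1 or combination replicate 3 (0.0604 to 0.0813). ELOVL6 lost its call without control replicate 2, EC359 replicate 2, trametinib replicate 3 or combination replicate 2 (0.0505 to 0.0851), FADS1 without control replicate 1, EC359 replicate 3 or combination replicate 3 (0.0504 to 0.0754), and FADS2 without combination replicate 3 (0.057). The other 11 calls held without any single library.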

How the results depend on the processing

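Over the members and comparisons, 2540 values kept their call or stayed without one under the alternatives, 77 lost the call, 30 gained it and 9 were counted as reversed. A small value without a call could change sign and not be counted. All 9 counted reversals came with total counts only, which shifts all genes: SCAP (-0.0046) and ACLY (-0.036) with EC359, FDPS (-0.13) and FADS2 (-0.0042) with the combination, and PMVK (-0.16), FDPS (-0.15), SCAP (-0.0074), ACLY (-0.13) and FADS1 (-0.071) between the combination and trametinib. With total counts the number of lower members became 6 with the combination and 10 against trametinib, and the median log2 fold change became 0.281 with EC359, 0.0869 with trametinib, 0.121 with the combination, 0.0645 between combination and trametinib and -0.142 for the interaction. Without a filter the medians were 0.367 with EC359, 0.2341 with the combination and 0.197 between combination and trametinib. With a 2-fold minimum, 4 members were higher with EC359, 1 with trametinib, 4 with the combination, 1 against EC359, 3 against trametinib and 1 in the interaction, and 0 were lower in each. Leaving out each library in turn gave medians of 0.381 to 0.463 with EC359, 0.0522 to 0.0725 with trametinib, 0.235 to 0.284 with the combination, -0.0283 to 0.0153 against EC359, 0.205 to 0.236 against trametinib and -0.13 to -0.0887 for the interaction. It gave 20 to 22 higher members with EC359, 9 to 12 with trametinib and 20 to 22 with the combination. Replicate numbers did not pair the libraries: deviations of same-numbered libraries correlated across genes with r of -0.067 to 0.03, and 1 of 12 libraries correlated best with its own number. With the replicate block, 21 members were higher and 3 lower with EC359, TM7SF2 being the call that was lost. TM7SF2 and HSD17B7, whose calls with EC359 were lost under several alternatives, lay at only 3.43 to 7.03 CPM, and the cause was not tested.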

Other observations

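The 2 members that are also annotated on a second contig were the most variable of those tested. The coefficient of variation within groups (root mean square over the 4 groups) was 32.2% for ACACA and 17.5% for LSS, against a median of 5.35% over all genes tested. ACACA was measured at 5.57, 2.82 and 2.74 CPM in the controls, 9.85, 5.304 and 5.08 with EC359, 4.62, 4.102 and 3.63 with trametinib, and 3.59, 5.37 and 5.67 in the combination. In control and with EC359, replicate 1 lay well above the other two replicates of ACACA, and with the combination it lay below them. LSS was measured at 9.996, 14.7 and 9.18 CPM in the controls, 8.79, 9.63 and 9.46 with EC359, 11.6, 8.62 and 13.04 with trametinib, and 11.3, 9.69 and 11.6 in the combination, where each treated group overlapped control.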
